A study of Mus musculus with 12 samples.

Results

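The motile cilium and axoneme genes described here are 41 mouse genes for axonemal dyneins, cilia and flagella proteins and related ciliated-cell products, together with Foxj1, their transcriptional regulator. They were chosen by gene name from a list of such genes, out of 19938 genes that the array annotation named through a single symbol. Of several probe sets of a gene, the brightest on average was read. All 41 were found, and 38 of them were bright enough to be tested among 16721 genes. The list was drawn up with earlier results on these arrays known, and 4 of its members (Dnah6, Cfap54, Invs and Cetn4) had already stood out in them. The values of these 4 are therefore given as a description with standard errors and no p-value.

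The study took striatum from male mice aged 90 days and measured its RNA on 12 whole-transcript microarrays, in 4 groups of 3. On both chromosomes the Huntington's disease gene was a knock-in allele. It was either the Q20 allele (HdhQ20/Q20) or the expanded Q111 allele (HdhQ111/Q111), so that the control groups were knock-in mice too. Each allele was combined with both copies of the gene for the metabotropic glutamate receptor mGluR5 (mGluR5+/+) or with none (mGluR5-/-). The genetic background is given alike for all groups, as a mix of 129, CD-1, C57BL/6 and FV. How the alleles of these strains were spread over the groups is not given. No litter is labelled, and nothing says that a group's 3 arrays are from different animals. The p-values then measure only the spread between samples, which may be technical.

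A motile cilium beats because dynein arms on its outer microtubule doublets slide the doublets past each other, while radial spokes and the central pair of microtubules control the stroke. A ruler complex along each doublet sets where arms and spokes attach, and proteins inside the doublets stiffen them. Around the striatum the cells known for many motile cilia are the ependymal cells that line the lateral ventricle and move cerebrospinal fluid. Neurons and astrocytes usually carry a single primary cilium, which is built by intraflagellar transport and lacks most of the beating machinery.

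The arrays had medians between 7.05 and 7.16 on the log2 scale and 25th percentiles between 5.69 and 5.94, the level a gene had to pass in at least 3 arrays to be tested. Their interquartile ranges lay between 2.56 and 2.95. Grm5, which encodes mGluR5, read 11.85 to 12.08 in the 6 arrays labelled mGluR5+/+ and 10.93 to 11.17 in the 6 labelled mGluR5-/-, without overlap. Which part of Grm5 its probes cover was not analysed here. The 14 measured markers of striatal projection neurons all lay above the median of every array, and their mean was 11.25 to 11.43. Precision is limited by the number of arrays.

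The dynein gene Dnah6 showed the widest contrast among the members. Its promoter is printed here because it is the member whose signal moved most and because it holds a short palindrome known as an X-box, the element that RFX transcription factors recognise in many cilium genes. It lies at chr6:73221582-73221881 on the minus strand of GRCm38.p6 and runs from 250 bases before to 50 bases after the RefSeq start. The capitals mark the X-box, whose first base is at position -36 from the start.
Dnah6: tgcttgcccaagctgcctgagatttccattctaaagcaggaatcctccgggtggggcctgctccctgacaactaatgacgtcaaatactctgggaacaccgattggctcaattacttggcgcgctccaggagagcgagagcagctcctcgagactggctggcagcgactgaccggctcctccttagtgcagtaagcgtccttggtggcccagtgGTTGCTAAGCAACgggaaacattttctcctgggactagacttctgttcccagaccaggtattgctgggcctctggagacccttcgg

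Promoters of this length from RefSeq were at hand for 34 of the 41 members, as 39 sequences. The search took GTTNCC or GTTNC as the left arm of the X-box and GNAAC as its right arm, with 3 free bases between, on both strands. These letters were chosen after the Dnah6 promoter had been read. The forms of 14 and 13 bases were in 264 and 319 of 32851 mouse promoters, and the forms can share a promoter. At least 1 of them was present in 10 of the 39 member promoters, from 9 genes. Of all promoters, 1.76% held at least 1. The forkhead core TGTTTA, known for FOXJ1 and other forkhead factors, was present in 8 of the 39 member promoters, from 8 genes, against 13.4% of all promoters. A match is a description of the letters and not a site shown to be bound. The X-box letters are printed below for comparison with that of Dnah6, each along the strand of its gene. Those of Hydin, Cfap44 and Cfap45 match on the opposite strand. Of these 9 genes, Dnah7a and Spag16 were not tested, and among the rest only Dnah6 showed a called difference between genotypes. Cfap54 is among the members without a promoter here, so it was not searched.
Dnah6: GTTGCTAAGCAAC
Dnah7a: GTTGCTTAGCAAC
Dnah9: GTTTCCCAGCAAC
Tekt2: GTTGCTCGGCAAC
Hydin: GTTGCTGTGGCAAC
Cfap44: GTTGCTATGGCAAC
Cfap45: GTTGCTATGGTAAC
Cfap61: GTTTCCTTAGCAAC
Spag16: GTTGCCGTAGTAAC

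Most of the axoneme genes read low in this tissue. The mean of 31 of the 41 members lay below the lowest array median, and 7 members were above the median of every array. The 25th percentile was passed in all 12 arrays by 32 members and in 8 to 11 arrays by Dnah12, Rsph4a, Tekt2, Cfap221, Cfap70 and Cfap53. It was passed in no array by Dnah7a, an inner arm dynein, or by Spag16 and Spag17, proteins of the central pair, and these 3 were not tested. Their 12 arrays ran from 4.55 to 5.44 for Dnah7a, from 5.14 to 5.59 for Spag16 and from 5.34 to 5.71 for Spag17. Fewer ciliated cells and less RNA per cell cannot be told apart in such bulk samples.

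Markers of ependymal cells were read as well. They are not free of cilium genes, since Dynlrb2, Enkur and Meig1 are also among the further motile cilium genes read below. Of 17 ependymal markers, 12 were tested, 3 lay above the median of every array, and none was called in any of the 7 comparisons. Of all tested genes only 0.275% to 1.32% were called in these comparisons, so the lack of calls among 12 markers says little. Their mean ran from 6.73 to 6.95 in Q20 mice with mGluR5, from 6.78 to 6.92 in Q20 mice without it, from 6.77 to 6.86 in Q111 mice with mGluR5 and from 6.73 to 6.85 in Q111 mice without it. The 4 groups overlapped.

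Foxj1, the forkhead factor needed for motile cilia, gave overlapping values in all groups. Its 3 arrays read 7.21, 7.06 and 7.10 in Q20 mice with mGluR5 and 7.05, 6.99 and 7.20 in Q20 mice without it. They read 7.18, 6.89 and 7.25 in Q111 mice with mGluR5 and 7.0, 7.04 and 7.09 in Q111 mice without it. The largest of the 4 simple differences was -0.06 ± 0.10 (SE) on the log2 scale, for mGluR5 loss in Q111 mice (95% interval -0.28 to 0.16, limma adjusted p = 1.0).

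The outer arm heavy chains Dnah5, Dnah9 and Dnah11, the motors that power the beat, had 12-array means between 6.13 and 6.64. Dnah9 read 6.79, 6.67 and 6.52 in Q20 mice with mGluR5, 6.68, 6.50 and 6.63 without it, 6.53, 6.77 and 6.75 in Q111 mice with mGluR5 and 6.50, 6.55 and 6.77 without it. Dnah5 read 6.43, 6.37 and 6.30, then 6.23, 6.14 and 6.17, then 6.29, 6.20 and 6.51, then 6.30, 6.14 and 6.30 in the same order of groups. The Dnah5 arrays of Q20 mice without mGluR5 all lay below those of Q20 mice with it. That difference was -0.19 ± 0.10 and missed the threshold (limma adjusted p = 0.902).

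Among the inner arm heavy chains, which shape the bend of the cilium, Dnah6 stood apart. It read 8.45, 8.72 and 8.87 in Q20 mice with mGluR5 and 8.78, 8.70 and 8.35 in Q111 mice without mGluR5. It read 6.00, 6.09 and 5.96 in Q20 mice without mGluR5 and 6.07, 6.42 and 6.30 in Q111 mice with mGluR5. The array values thus formed a high pair and a low pair of groups with nothing between them, and the low pair lay just above the 25th percentile of the arrays.

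With mGluR5 present, Dnah6 was lower in Q111 than in Q20 mice, 6.26 ± 0.18 against 8.68 ± 0.22 (SD, n = 3), a log2 difference of -2.42 ± 0.13 (SE, 5.34-fold). Without mGluR5 it was higher in Q111 mice, 8.61 ± 0.23 against 6.02 ± 0.07, a difference of 2.59 ± 0.13 (6.04-fold). Read the other way, mGluR5 loss went with a level 2.66 ± 0.13 lower in Q20 mice (difference -2.66, 6.33-fold) and 2.35 ± 0.13 higher in Q111 mice (5.09-fold). These 4 differences share their samples. The low groups lay just above the level a gene had to pass to be tested, where a fold can be understated, so these folds are not exact sizes. Averaged over the mGluR5 genotypes the Q111 difference was 0.09 ± 0.09.

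**Figure D1:**
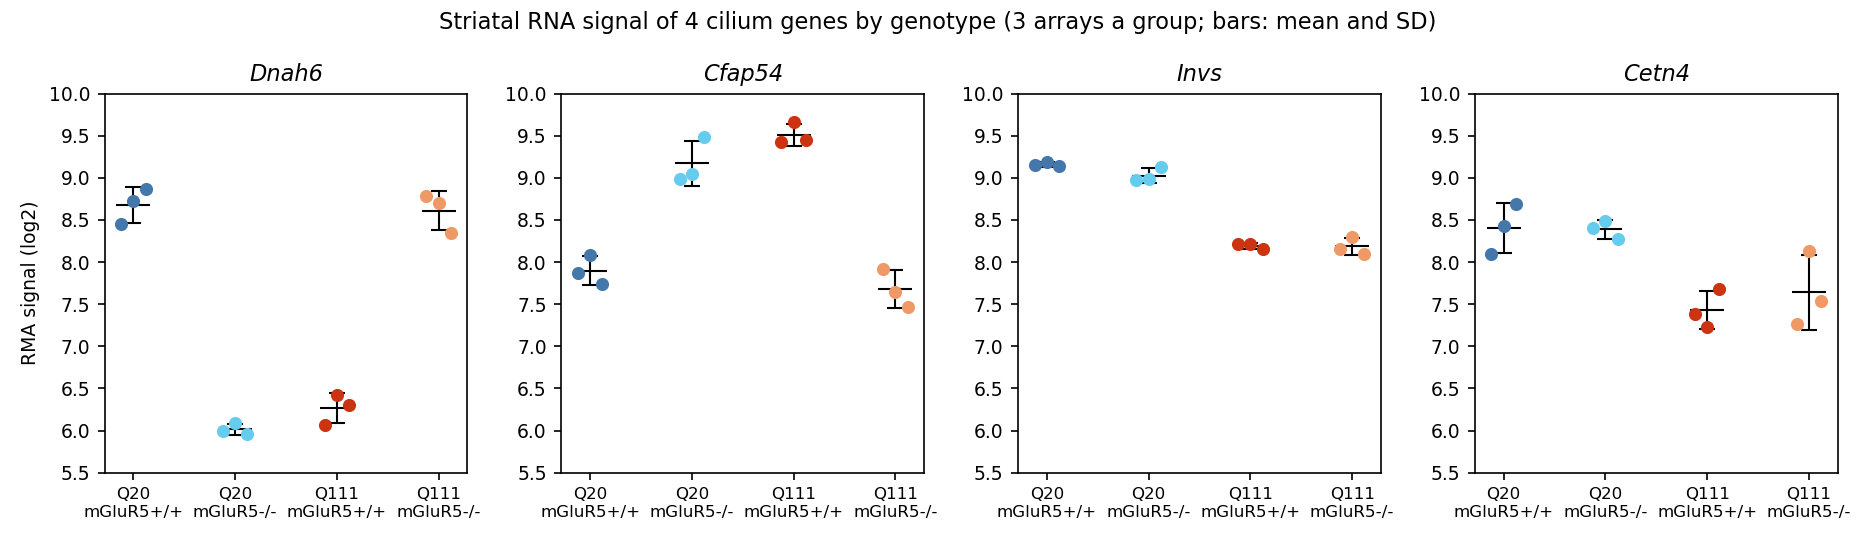
RMA signal on the log2 scale of Dnah6, Cfap54, Invs and Cetn4 in the 12 arrays, by genotype. Points are single arrays, the long dash is the group mean and the bars are the SD of 3 arrays. Dnah6 was high in Q20 mice with mGluR5 and Q111 mice without it, Cfap54 was high in the other groups, and Invs and Cetn4 were lower in Q111 mice of both mGluR5 genotypes, with overlap of 1 array for Cetn4.

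All 3 Dnah6 probe sets on the array separated the same groups. The second set gave Q111 differences of -2.52 ± 0.15 with mGluR5 and 2.59 ± 0.15 without it, and the third gave -2.16 ± 0.11 and 2.02 ± 0.11. They come from the same RNA samples and are not further replicates.

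The remaining tested inner arm chains Dnah1, Dnah2, Dnah3, Dnah10 and Dnah12 showed no called difference. Dnah3 read 8.31, 8.27 and 8.05 in Q20 mice with mGluR5, 7.89, 7.85 and 8.02 without it, 7.95, 7.75 and 8.26 in Q111 mice with mGluR5 and 8.08, 8.17 and 8.26 without it. Its Q111 differences were -0.23 ± 0.12 with mGluR5 and 0.25 ± 0.12 without it, the same signs as those of Dnah6 at a far smaller size. Their contrast was 0.48 ± 0.17 and missed the threshold (95% interval 0.11 to 0.85, limma adjusted p = 0.675). Dnah3 had 33 probe sets, whose simple differences ran from -0.41 to 0.31. Dnah10 read 6.93, 6.85 and 6.93, then 6.87, 6.71 and 7.04, then 7.0, 6.78 and 6.97, then 7.19, 6.89 and 7.09, with all groups overlapping.

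Radial spoke genes, whose products carry signals from the central pair to the dyneins, were Rsph1, Rsph4a, Rsph9, Cfap61 and Cfap206. Rsph9 read 7.03, 7.07 and 6.83 in Q20 mice with mGluR5, 6.70, 7.18 and 6.76 without it, 6.80, 6.98 and 6.77 in Q111 mice with mGluR5 and 6.74, 6.77 and 6.95 without it. Cfap206 read 6.71, 6.63 and 6.48, then 6.38, 6.61 and 6.35, then 6.31, 6.59 and 6.29, then 6.32, 6.57 and 6.35. In neither gene did a group stand clear of all others. Rsph4a, a protein of the spoke head, had the largest negative Q111 difference without mGluR5 among the 34 tested members other than the 4 named above, -0.32 ± 0.15 (limma adjusted p = 0.518).

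Cfap54, a large protein of the central pair apparatus, had the reverse order of groups. It read 7.87, 8.08 and 7.74 in Q20 mice with mGluR5 and 7.92, 7.64 and 7.47 in Q111 mice without mGluR5. It read 8.98, 9.05 and 9.48 in Q20 mice without mGluR5 and 9.42, 9.66 and 9.45 in Q111 mice with mGluR5. The groups that were low for Dnah6 were high for Cfap54, again with no array between the pairs.

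With mGluR5 present, Cfap54 was higher in Q111 mice, 9.51 ± 0.13 against 7.90 ± 0.17 (SD, n = 3), a log2 difference of 1.61 ± 0.15 (SE). Without mGluR5 it was lower in Q111 mice, 7.68 ± 0.23 against 9.17 ± 0.27, a difference of -1.49 ± 0.15. Loss of mGluR5 went with differences of 1.27 ± 0.15 in Q20 mice and -1.83 ± 0.15 in Q111 mice. The averaged Q111 difference was 0.06 ± 0.10. A second, dimmer probe set kept the 4 directions at smaller sizes of 0.93, -0.80, 0.53 and -1.20 (SE 0.14 each).

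**Figure D2:**
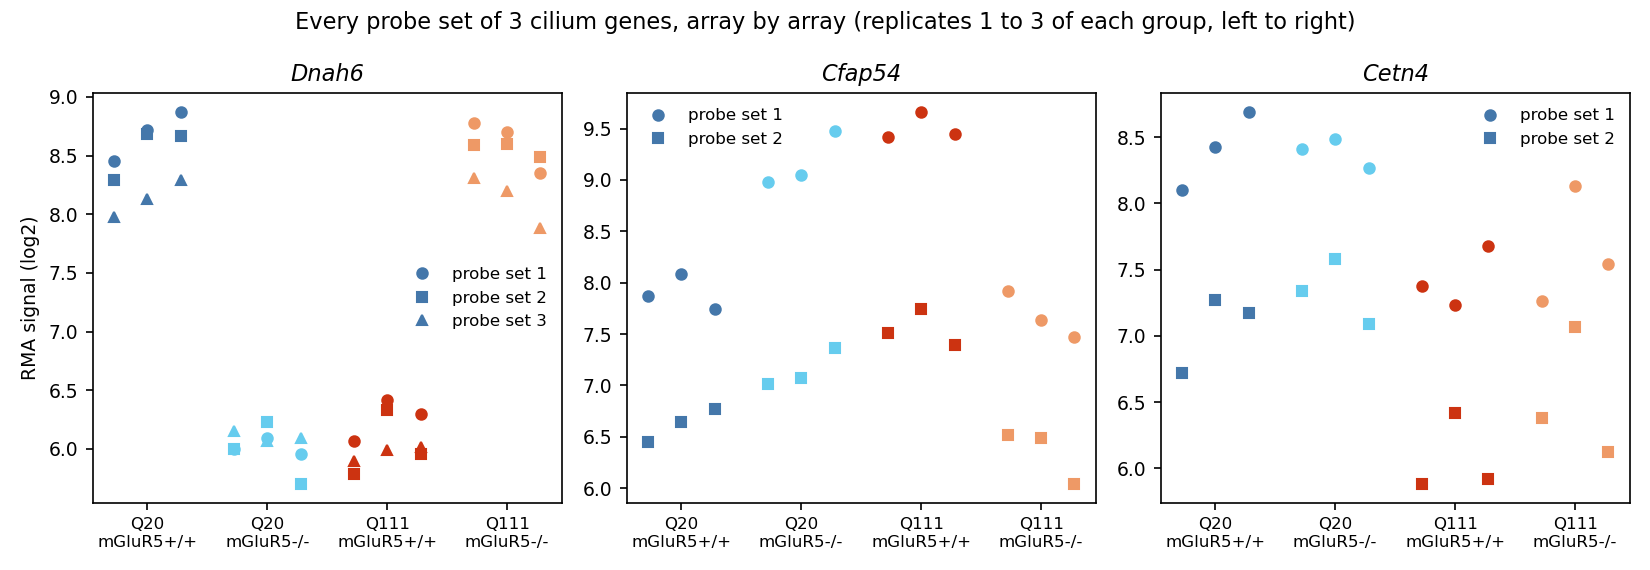
RMA signal on the log2 scale of every probe set of Dnah6, Cfap54 and Cetn4 in the 12 arrays, by genotype. Each point is 1 array and the symbol shape is the probe set. The 3 Dnah6 sets separated the same groups, the second Cfap54 set spanned a smaller range than the first, and both sets annotated as Cetn4 had 1 high array among the Q111 mice without mGluR5.

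Over the 12 arrays the Pearson r of Dnah6 with Cfap54 was -0.933, which describes 4 group levels more than 12 separate points. Among genes outside the list the closest to Dnah6 by the size of r were Ints7 (0.962), Tatdn3 (0.935), Pcdhb11 (0.923), Tacr3 (-0.910) and Zfp791 (-0.907). The closest to Cfap54 were Calr (0.926), Dbi (-0.922), Egln1 (0.913), Arhgap4 (-0.908) and Tatdn3 (-0.893). All of these share the arrays from which Dnah6 and Cfap54 were read. Ints7, Tatdn3 and Dbi lie on chromosome 1, and Zfp791, Calr and Egln1 lie on chromosome 8. Tacr3, Pcdhb11 and Arhgap4 lie on chromosomes 3, 18 and X. Whether position on a shared chromosome had a part in these likenesses was not tested. Ints7, a subunit of the Integrator complex, averaged 9.18 ± 0.11, 8.53 ± 0.13, 8.69 ± 0.10 and 9.13 ± 0.08 in Q20 mice with and without mGluR5 and Q111 mice with and without it.

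The other central pair genes Hydin, Spag6, Cfap46, Cfap65, Cfap69, Cfap70 and Cfap221 included the member closest to a call. Cfap46 read 7.43, 7.31 and 7.30 in Q20 mice with mGluR5, 7.89, 7.70 and 7.85 without it, 7.74, 7.74 and 7.47 in Q111 mice with mGluR5 and 7.89, 7.69 and 7.69 without it. The Q20 mice with mGluR5 thus lay below every other group. The difference for mGluR5 loss in Q20 mice was 0.47 ± 0.10 (95% interval 0.25 to 0.68) and missed the threshold (limma adjusted p = 0.0783). It passed under 5 of 20 alternatives, namely the replicate block, the interquartile range covariate, a filter at the array median and the fits that left out replicate 2 or replicate 3 from the mGluR5-carrying Q111 group. A second Cfap46 probe set gave 0.13 ± 0.15 for the same difference. Cfap65 read 7.69, 7.55 and 7.26, then 7.33, 7.40 and 7.34, then 7.39, 7.28 and 7.69, then 7.38, 7.47 and 7.48, and its groups overlapped.

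Among the ruler proteins and dynein tethers, Ccdc39 and Ccdc40 form the doublet ruler, and Cfap43, Cfap44 and Cfap57 hold inner arm dyneins. Ccdc39 read 7.39, 7.53 and 7.39 in Q20 mice with mGluR5, 7.30, 7.57 and 7.29 without it, 7.19, 7.72 and 7.40 in Q111 mice with mGluR5 and 7.57, 7.52 and 7.43 without it. Cfap43 read 7.41, 7.08 and 7.23, then 7.24, 6.84 and 7.48, then 7.32, 6.72 and 7.17, then 7.29, 7.21 and 7.40. All groups of these genes overlapped. Ccdc40 was lower in all Q111 than in all Q20 arrays without mGluR5, by -0.16 ± 0.09, which missed the threshold (limma adjusted p = 0.666).

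Tektins and other proteins inside the doublets (Tekt1, Tekt2, Cfap45, Cfap52, Cfap53 and Cfap126) read between 5.81 and 6.58 on average. Cfap52 read 6.78, 6.63 and 6.43 in Q20 mice with mGluR5, 6.69, 6.44 and 6.61 without it, 6.65, 6.46 and 6.54 in Q111 mice with mGluR5 and 6.54, 6.54 and 6.66 without it. Cfap126 read 6.88, 6.83 and 6.34, then 6.71, 6.82 and 6.32, then 6.44, 6.65 and 6.39, then 6.29, 6.26 and 6.78. Both overlapped in every pair of groups compared. The Q111 difference of Tekt2 with mGluR5 was 0.25 ± 0.11, without overlap of the groups, and missed the threshold (limma adjusted p = 0.680).

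The last role holds genes of ciliated cells that are not axoneme proteins in the strict sense. Tmem212, a marker of ependymal cells, read 7.09, 6.88 and 6.63 in Q20 mice with mGluR5, 6.70, 6.77 and 6.72 without it, 6.74, 6.98 and 6.89 in Q111 mice with mGluR5 and 6.79, 6.88 and 6.83 without it. Ak7, an adenylate kinase of motile cilia, read 6.41, 6.70 and 6.07, then 6.11, 6.34 and 6.32, then 5.95, 6.29 and 6.34, then 6.22, 6.18 and 6.46. The range within Q20 mice with mGluR5 was the widest of the 4 groups for both genes. Tmem212 was higher in all Q111 than in all Q20 arrays without mGluR5, and this difference did not pass the test.

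Invs encodes inversin, a protein at the base of primary cilia and of nodal cilia that acts in Wnt signalling and left-right asymmetry. It read 9.15, 9.19 and 9.14 in Q20 mice with mGluR5, 8.97, 8.98 and 9.13 without it, 8.21, 8.22 and 8.15 in Q111 mice with mGluR5 and 8.16, 8.30 and 8.10 without it. The highest Q111 array, at 8.30, was below the lowest Q20 array, at 8.97, and such a separation of 6 from 6 arrays was found in 1.21% of all tested genes. The Q111 difference was -0.97 ± 0.09 with mGluR5, -0.84 ± 0.09 without it and -0.91 ± 0.06 averaged. Loss of mGluR5 went with -0.14 ± 0.09 in Q20 and -0.01 ± 0.09 in Q111 mice. The array holds 1 Invs probe set.

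Cetn4 encodes a centrin, a calcium-binding protein of basal bodies. It read 8.10, 8.43 and 8.69 in Q20 mice with mGluR5, 8.41, 8.49 and 8.27 without it, 7.38, 7.23 and 7.68 in Q111 mice with mGluR5 and 7.26, 8.13 and 7.54 without it. The Q111 arrays were lower except for 1 Q111 array without mGluR5, which at 8.13 exceeded the lowest Q20 array. The Q111 difference was -0.97 ± 0.19 with mGluR5, -0.74 ± 0.19 without it and -0.86 ± 0.14 averaged. The difference without mGluR5 did not pass the test, and that with mGluR5 lost its call in 5 of the 12 fits that left out an array. These were the fits without replicate 2 (-0.96) or 3 (-0.83) of the Q20 mice with mGluR5, replicate 1 of the Q20 mice without it (-0.97), and replicate 1 (-0.95) or 2 (-0.87) of the Q111 mice with it. A second probe set that the annotation names Cetn4 gave -0.98 ± 0.22 and -0.81 ± 0.22, but its position was not checked here, so whether it reads Cetn4 was not tested.

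The promoters of Invs and Cetn4 are printed because both genes start beside a divergent neighbour, so that the same stretch of DNA holds both start regions. Erp44, an endoplasmic reticulum chaperone gene, lies 71 bases from Invs on the opposite strand. Bbs12, a Bardet-Biedl syndrome gene, lies 100 bases from Cetn4 on the opposite strand. The printed windows are chr4:48279510-48279809 on the plus strand and chr3:37312397-37312696 on the minus strand of GRCm38.p6. The gene models come from RefSeq. Neither the X-box forms searched above nor the forkhead core were found in these windows, so no base is in capitals. Looser forms of the X-box were not searched, so their absence is not shown.
Invs: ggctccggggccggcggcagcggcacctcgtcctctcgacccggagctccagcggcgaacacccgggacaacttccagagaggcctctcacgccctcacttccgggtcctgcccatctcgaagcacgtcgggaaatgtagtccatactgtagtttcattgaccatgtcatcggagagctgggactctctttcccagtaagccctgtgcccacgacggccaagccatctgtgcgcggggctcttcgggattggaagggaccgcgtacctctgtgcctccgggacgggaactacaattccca
Cetn4: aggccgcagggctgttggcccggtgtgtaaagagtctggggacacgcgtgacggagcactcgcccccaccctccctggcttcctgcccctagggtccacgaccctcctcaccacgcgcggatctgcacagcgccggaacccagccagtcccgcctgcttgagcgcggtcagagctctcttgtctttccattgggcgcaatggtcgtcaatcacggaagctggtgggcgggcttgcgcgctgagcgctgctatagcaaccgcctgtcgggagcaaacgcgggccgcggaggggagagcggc

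The averaged Q111 difference of Erp44 was -0.11 ± 0.11 (limma adjusted p = 0.740) beside -0.91 for Invs. That of Bbs12 was -0.00 ± 0.09 (limma adjusted p = 0.994) beside -0.86 for Cetn4. Neither divergent neighbour showed a called difference where its member did. The group means of Erp44 ran from 7.77 (Q111 mice with mGluR5) to 7.97 (Q20 mice with mGluR5). Those of Bbs12 ran only from 5.93 (Q20 mice without mGluR5) to 6.13 (Q20 mice with mGluR5). Bbs12 thus lay close to the level a gene had to pass to be tested, where a fold can be understated. Its value therefore cannot show whether Bbs12 changed along with Cetn4.

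Of the 5 tested genes on either side of each of the 4 members, none was called around Dnah6 or Invs in any of the 7 comparisons. Lta4h, which encodes leukotriene A4 hydrolase, is the third tested gene from Cfap54 and was lower in Q111 mice with mGluR5, by -1.01 ± 0.18 (limma adjusted p = 0.0155). It averaged 8.55 ± 0.07, 8.07 ± 0.47, 7.54 ± 0.23 and 8.35 ± 0.15 in Q20 mice with and without mGluR5 and Q111 mice with and without it. Its difference between the Q111 effects without and with mGluR5 was 1.30 ± 0.25 (limma adjusted p = 0.0371), opposite in sign to the -3.10 ± 0.21 of Cfap54. The first Lta4h call was lost in 5 fits that left out an array, namely any array of the Q20 mice with mGluR5 or, in their Q111 counterparts, replicate 1 or 3. The second was lost in 9, namely these 5, replicate 1 of the Q20 mice without mGluR5 and any array of the Q111 mice without it. The values stayed between -1.14 and -0.90 and between 1.03 and 1.48 over all alternatives. Exosc9, an exosome subunit gene and the fourth tested gene from Cetn4, fell by 0.56 ± 0.11 on the log2 scale in the averaged Q111 comparison (limma adjusted p = 0.0149). Its call was lost without replicate 1 of either Q111 group and under the authors' criteria, with differences from -0.64 to -0.47 over 19 alternatives.

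**Figure D3:**
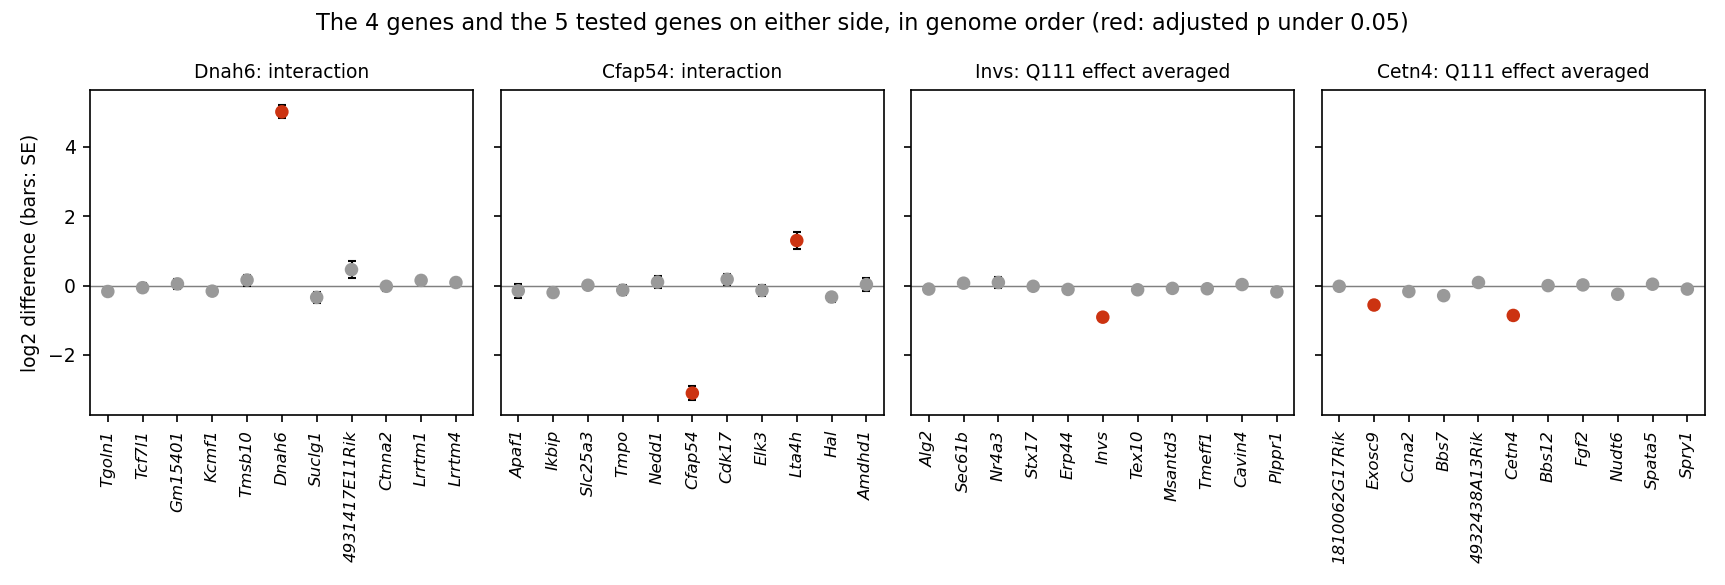
Log2 difference with its SE for Dnah6, Cfap54, Invs, Cetn4 and the 5 tested genes on either side of each, in genome order. Dnah6 and Cfap54 are shown for the contrast of the Q111 effects without and with mGluR5, and Invs and Cetn4 for the averaged Q111 effect. Red points had an adjusted p under 0.05. Lta4h and Exosc9 were the only red neighbours in these panels.

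Counted over the 38 tested members, 4 were called in the Q111 comparison with mGluR5 (Cfap54 higher, Dnah6, Invs and Cetn4 lower), where 0.574% of all tested genes were called (0.299% higher and 0.275% lower). Without mGluR5, 3 were called (Dnah6 higher, Cfap54 and Invs lower), against 0.885% of all genes (0.341% higher and 0.544% lower). Loss of mGluR5 called Cfap54 and Dnah6 in opposite directions in Q20 mice (all genes 0.299%) and in Q111 mice (all genes 0.275%). The contrast of the Q111 effects without and with mGluR5 called Dnah6 at 5.01 ± 0.19 and Cfap54 at -3.10 ± 0.21 (all genes 0.437%). The averaged Q111 comparison called Invs and Cetn4, both lower (all genes 1.32%, 0.496% higher and 0.825% lower), and averaged mGluR5 loss called none (all genes 0.293%). Every call came from the 4 members known from earlier results, so these counts are no independent support.

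The other 34 members showed no called difference in any of the 7 comparisons by limma. At an unadjusted p under 0.05 there were 2 for the Q111 effect with mGluR5 (all genes 6.84%), 1 without it (all genes 9.44%), 2 for mGluR5 loss in Q20 mice (all genes 6.02%) and 0 in Q111 mice (all genes 4.36%). There were 2 for the contrast of the Q111 effects (all genes 5.37%), 1 for the averaged Q111 effect (all genes 11.4%) and 1 for averaged mGluR5 loss (all genes 5.32%). Groups that did not overlap were found for 3 of the 34 in the Q111 effect with mGluR5 (all genes 9.69%), 5 without it (all genes 19.1%), 5 for mGluR5 loss in Q20 mice (all genes 12.8%) and 0 in Q111 mice (all genes 7.46%).

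The precision of these values was enough to bound them. The 95% interval of every one of the 34 lay within 2-fold in all 7 comparisons. It lay within 1.5-fold for 34 and 33 members in the Q111 effects with and without mGluR5, for 33 and 34 in mGluR5 loss in Q20 and Q111 mice and for 27 in the contrast of the Q111 effects. These intervals are per gene and not adjusted for their number, and low signals near background can understate a fold. Medians of the 34 log2 differences were -0.04 and 0.03 for the Q111 effect with and without mGluR5 (all genes -0.01 and -0.02), and -0.05 and 0.01 for mGluR5 loss in Q20 and Q111 mice (all genes 0.02 and 0.01). For the contrast of the Q111 effects the median was 0.08 (all genes -0.01), and it ran from 0.04 to 0.14 over the alternatives. Of the 34, 25 were positive and 9 negative, while 53.6% of all tested genes were negative. None of the 34 was called in this contrast.

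**Figure D4:**
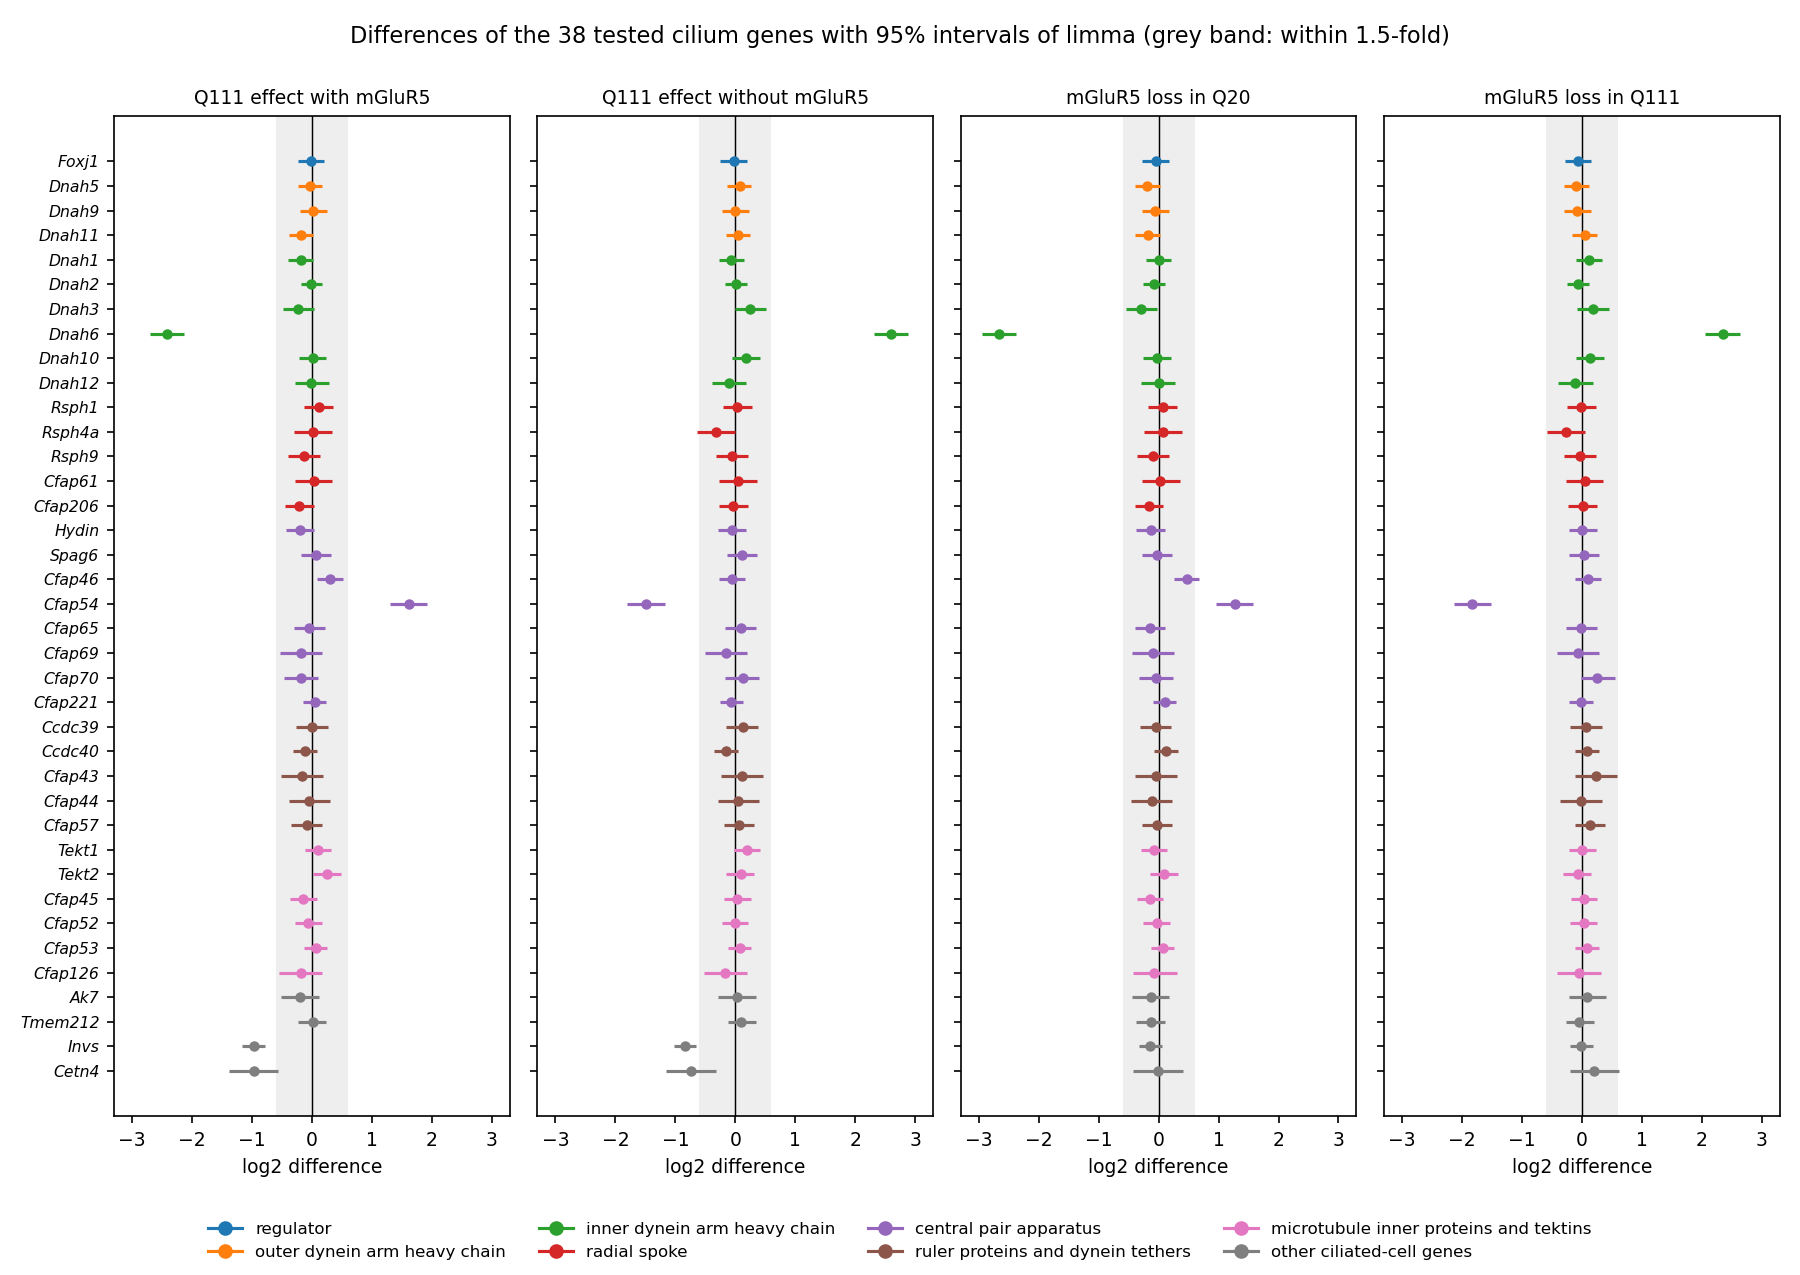
Log2 differences of the 38 tested members in the 4 simple comparisons, with the 95% interval of limma, coloured by role. The grey band marks changes within 1.5-fold. Dnah6, Cfap54, Invs and Cetn4 lie outside the band in both Q111 comparisons, while the other 34 members have their estimates inside it.

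The range of a gene over the 12 arrays uses no grouping. Dnah6, Cfap54, Invs and Cetn4 had already stood out on these arrays, so their wide ranges are a description and no further support. The median range of the 34 was 0.48, from 0.24 for Dnah2 to 0.81 for Rsph4a, and that of all tested genes was also 0.48. Dnah6 had a range of 2.91, the 5th widest of all tested genes. Cfap54 had a range of 2.19 (16th), Cetn4 of 1.46 (66th) and Invs of 1.09 (278th).

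A single array stood above the rest for the 34. Replicate 1 of the Q20 mice with mGluR5 held the highest value of 12 of the 34 members, and their mean lay 0.14 above the 12-array mean there against -0.09 to 0.05 in the other 11 arrays. The same array had the highest ependymal marker mean of all, 6.95, and a choroid plexus marker mean of 7.08, second to 7.09 in replicate 2 of the Q20 mice without mGluR5. What part these cells had in the level of the array was not tested. Without it the median of the 34 was 0.03 in place of -0.04 for the Q111 effect with mGluR5, a change of sign. For mGluR5 loss in Q20 mice it was -0.00 in place of -0.05, with 19 of the 34 negative in place of 26. Leaving out replicate 3 of the same group, which had the lowest mean at -0.09, moved both medians the other way, to -0.12 (27 of 34 negative) and -0.11 (29 of 34 negative). With all arrays kept, 54.1% of all tested genes were negative for the Q111 effect with mGluR5. For mGluR5 loss in Q20 mice that share was 43.0%. The median of the contrast of the Q111 effects was 0.04 without replicate 1 and 0.14 without replicate 3 of this group.

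**Figure D5:**
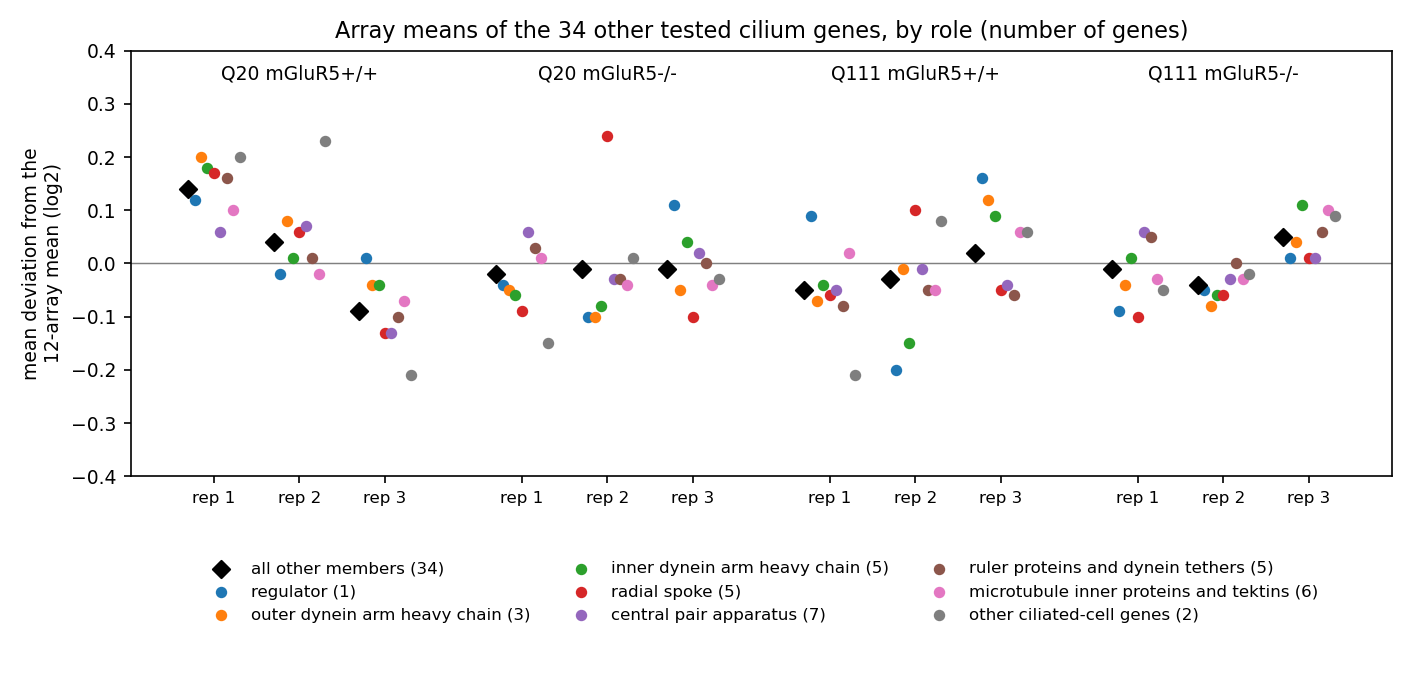
Mean deviation of the 34 tested members other than Dnah6, Cfap54, Invs and Cetn4 from their 12-array mean, on the log2 scale, in each array and by role. The black diamond is the mean over all 34 and the legend gives the number of genes. Replicate 1 of the Q20 mice with mGluR5 sits at 0.14, and the other arrays lie between -0.09 and 0.05.

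Further genes of the motile cilium were read from a separate list of 85, of which 76 were measured and 66 tested. In the averaged Q111 comparison 1 of the 66 was called, beside 1.32% of all genes, and it rose. Mns1, a protein inside the doublets, read 6.62, 6.61 and 6.22 in Q20 mice with mGluR5, 6.50, 6.59 and 6.57 without it, 6.95, 6.92 and 6.76 in Q111 mice with mGluR5 and 7.12, 6.97 and 6.99 without it. All Q111 arrays were above all Q20 arrays, and the difference was 0.43 ± 0.08 (limma adjusted p = 0.0101). It kept its call in 17 of 18 alternatives and lost it under the authors' criteria, which ask for 1.5-fold. The median over the 66 was -0.03, against -0.02 for all genes.

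Without mGluR5 the Q111 comparison called 1 of the 66, beside 0.885% of all genes. It was the dynein intermediate chain gene Wdr63 (now Dnai3), at 0.45 ± 0.09 (SE). It was above the 25th percentile in all 3 arrays of Q111 mice without mGluR5, in 2 of 3 of the Q20 mice with mGluR5 and in none of the other 6 arrays. The gene thus entered the test only through the group where it was high, so no p-value is given and the difference has no exact size. The call was lost in 6 of 19 alternatives, which were the authors' criteria and the fits without replicate 1 or 2 of the Q20 mice or any replicate of the Q111 mice of this comparison, with differences from 0.39 to 0.51 over all 19. In the other 5 comparisons none of the 66 was called (all genes 0.275% to 0.574%). Of 14 regulators of multiciliated cells, among them Mcidas and Rfx3, 13 were tested. None was called in any comparison, where 0.275% to 1.32% of all genes were called.

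Genes of the primary cilium and of intraflagellar transport, which serve neurons and glia as well as ependymal cells, numbered 63 tested of 67. Cep164, a protein of the distal appendages that anchor the basal body, fell by 0.28 ± 0.06 on the log2 scale in the averaged Q111 comparison (limma adjusted p = 0.0316). It was the only 1 of the 63 called there, beside 1.32% of all genes, and the call was lost in 12 of 18 alternatives. These included every fit that left out an array, save those that dropped replicate 2 or 3 from the mGluR5-carrying Q111 group, and the difference ran from -0.31 to -0.21. Of the 63, 57 were lower in Q111 mice on average against 56.6% of all tested genes, with a median of -0.08 against -0.02. With the interquartile range of each array as a covariate, 39 of the 63 were lower and the median was -0.02. Array spread moved with this shift, and its part in it was not tested further.

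Markers of other cells that the dissected tissue may hold were read too. No marker was called in any comparison among 14 tested for striatal projection neurons, 11 for subventricular neuroblasts and 12 for astrocytes. The averaged Q111 comparison called 1.32% of all genes. In it Car12, a carbonic anhydrase and 1 of 11 tested choroid plexus markers, fell by 0.80 ± 0.09 (limma adjusted p = 9.95e-05), and no other was called. Car12 was the brightest of that list at 9.55. The median averaged difference of the list was -0.03, with 3 markers higher and 8 lower, against -0.02 for all genes. The mean of that list ran from 6.66 to 7.08, 6.83 to 7.09, 6.63 to 6.90 and 6.64 to 6.75 in Q20 mice with and without mGluR5 and Q111 mice with and without it, and 1 of 13 measured genes was above the median of every array. Of 10 tested markers of cortex and septum, Trpc4, a cation channel, fell by 0.44 ± 0.08 in the same comparison (limma adjusted p = 0.00857). The median of that list was -0.01, with 4 markers higher and 6 lower. What part these had in the values of the cilium genes was not tested.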

How the data were processed

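The authors deposited 1 table of log2 signals for 35556 probe sets on 12 arrays. Per the submitters' processing notes the values come from RMA and Partek, and the series' design text names Partek Genomics Suite 6.5. RMA corrects background, equalizes arrays by quantiles and summarizes probes by median polish. The scan batch and the annotation version were not given in the sources used here. Total RNA came from dissected striatum and was labelled as biotinylated single-stranded cDNA, per the labels' protocols.

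Platform annotation gave 1 symbol for 21789 probe sets, several for 1621 and none for 12146. By Entrez ID 21698 of the first matched RefSeq on GRCm38.p6, 68 matched by symbol alone and 23 did not match. Genes with several kept the brightest on average. Genes above their array's 25th percentile in at least 3 arrays were tested.

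Group means were fitted with limma 3.58.1 in R 4.3.3 over all 12 arrays, whose groups share 1 estimate of the spread (residual df 8, prior df 6.88). P-values were two-sided and adjusted by Benjamini-Hochberg over 16721 genes, with calls at an adjusted p under 0.05, and 7 contrasts were computed. The script was tested on simulated data. The authors' stated criteria, a p from an ANOVA under 0.05 and 1.5-fold, were an alternative.

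The members and gene lists were chosen with earlier results of these data known. All members are accounted for. Values of each array are given for called members, Foxj1 and, for each role, the 2 other members with the highest mean. For Dnah6 and Cfap54 the 5 genes with the largest absolute Pearson r were named. Of the further lists every called gene was named. Promoters are those of RefSeq on GRCm38.p6. Python 3.11.15 and matplotlib 3.10.9 made the plots.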

Additional observations from a re-analysis of the deposited data

Results flagged for a closer look

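The effect of the Q111 allele differed between mGluR5 genotypes for 2 of the cilium genes and for 1 neighbour, by the interaction term of limma. For Dnah6 the Q111 effect without mGluR5 minus that with mGluR5 was 5.01 ± 0.19 (SE) on the log2 scale. For Cfap54 it was -3.10 ± 0.21. Both genes were known from earlier results on these arrays, so these values are a description. For Lta4h, the third tested gene from Cfap54, it was 1.30 ± 0.25 (limma adjusted p = 0.0371), and the call was lost in 9 of the 12 fits that each left out an array. Groups of 3 arrays are too small for a test of single outlying arrays.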

How the results depend on the processing

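The number of cilium genes called in each of the 7 comparisons stayed within 1.5 times its value in all 137 alternatives run. These covered the authors' criteria, fits of the compared groups alone, quantile normalization, the spread of each array as a covariate and 2 other filters. They also covered the mean of all probe sets, the replicate number as a block and leaving out each array. The bound lets a count move from 2 to 3, as it did for mGluR5 loss in Q20 mice where Cfap46 was added. All main calls came from the 4 members known from earlier results, so this stability is no independent support. Of 296 alternatives over 15 differences of single members, 291 kept direction and call, none reversed, and 5 kept the direction and lost the call. All 5 were the Q111 difference of Cetn4 with mGluR5 in fits that left out an array, and the cause was not tested. Same-numbered arrays of different groups correlated between -0.144 and 0.567 in their deviations, and differently numbered ones between -0.555 and 0.449. Pairs of replicate 2 were all positive, from 0.339 to 0.567. Pairs of replicate 3 ran from 0.358 to 0.462 among the groups other than Q20 mice with mGluR5, and from -0.144 to -0.008 with that group. Replicate 2 also had the widest interquartile range in each group. The labels do not say what the numbers share, so the main fit did not pair by them. With the replicate block 4, 4, 3, 2, 2, 2 and 0 members were called, in the order of the Q111 effect with and without mGluR5, mGluR5 loss in Q20 and Q111 mice, their contrast and the averaged effects of Q111 and of mGluR5 loss. The block added calls for Cetn4 (Q111 without mGluR5) and Cfap46 (mGluR5 loss in Q20 mice). The share of all tested genes called with the block is not given here. Whether the added calls go beyond a general rise in calls was therefore not tested. Quantile normalization moved the median of all genes by less than 0.1 in every comparison. The precision is limited by 3 arrays a group.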
